A study of Mus musculus with 6 samples.

Results

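The signal of 10 imprinted genes linked to growth, Igf2, H19, Meg3, Dlk1, Peg3, Mest, Plagl1, Cdkn1c, Ndn and Grb10, was compared between 2 magnetically sorted cell fractions of the neonatal mouse cerebellum. The 10 genes were taken by name from the array's annotation, where they had 25 probes among the 55681 probes for genes, and they make up 10 of its 34836 gene names. The A+/G+ fraction (positive for the astrocyte surface antigen ACSA-2 and the glutamate transporter GLAST) and the A-/G+ fraction (negative for ACSA-2 and positive for GLAST) had 3 samples each, labelled as biological replicates of 50000 cells, all from wild-type CD1 mice at postnatal days 1 to 3 with no treatment. The study's methods name another mouse background and, for the arrays, an age range that starts and ends earlier than that of these labels. They also state that cerebella of either sex were pooled. A+/G+ cells were held on ACSA-2 beads in a single step, whereas A-/G+ cells were first depleted of cells carrying ACSA-2, neuronal, blood or immune surface antigens and then held on GLAST beads, so only the second fraction passed a depletion. Each sample was hybridized to 1 single-color Agilent array.

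Imprinted genes are expressed mainly from a single parental allele. Many act on fetal growth, with paternally expressed genes such as Igf2 tending to promote it and maternally expressed genes such as Cdkn1c tending to restrain it. Igf2 and H19 are neighbors that share enhancers and an imprinting control region, and Dlk1 and Meg3 form a similarly organized pair. In the brain, Igf2 is best known from the choroid plexus and the leptomeninges. The arrays measured the RNA of both alleles together, so parental origin was not seen.

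The arrays read each gene through 60-base probes, and not every H19 probe read above background. The H19 probes lay on the reverse strand of mm9 inside the noncoding transcript region that the array's annotation places at chr7:149761435-149764019. The brightest H19 probe is at chr7:149761492-149761551, and the only one that stayed at background on all arrays is at chr7:149762417-149762476. The brightest Meg3 probe is at chr12:110809678-110809737 on the forward strand, and the second Dlk1 probe, whose values spread most, is at chr12:110698502-110698561 on the forward strand. These 4 are shown, 5′ to 3′ and in lower case, because they carry the transcripts and the disagreements described below.
H19, brightest probe: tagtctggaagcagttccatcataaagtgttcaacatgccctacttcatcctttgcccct
H19, probe at background: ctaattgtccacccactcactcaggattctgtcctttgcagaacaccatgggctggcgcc
Meg3, brightest probe: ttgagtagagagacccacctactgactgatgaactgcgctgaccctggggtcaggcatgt
Dlk1, second probe: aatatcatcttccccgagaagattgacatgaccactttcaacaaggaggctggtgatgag

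Of the 10 genes, 4 were higher in A+/G+ cells at an adjusted p of at most 0.05, namely H19, Dlk1, Igf2 and Mest. Grb10 was higher in A-/G+ cells, and the other 5 did not pass. The first 3 of these differed by more than 4-fold between medians, and Mest and Grb10 by less than 2-fold. Values below are log2 quantile normalized signals, a gene is represented by its probe with the highest mean over the 6 arrays, and differences are A+/G+ minus A-/G+ with the standard error and the Benjamini-Hochberg adjusted p of limma over all 55681 probes. For all probes, 2589 (4.65%) were higher in A+/G+ cells and 2583 (4.64%) higher in A-/G+ cells at that limit, and 851 (1.53%) and 222 (0.399%) also had medians at least 4-fold apart. The median difference of the 10 genes was 0.63, against -0.04 over all probes. When the arrays were aligned at their 75th percentile instead of by quantiles, 2369 probes passed toward A+/G+ and 17203 toward A-/G+ cells, 777 and 2055 of them also 4-fold apart. The A+/G+ share of the calls was then 12.1% in place of 50.1%, and 27.4% in place of 79.3% with the 4-fold limit, mainly through more A-/G+ calls. This alignment moved the median of all probes to -1.02, and that of the 17949 probes well above background on all arrays to -0.16.

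All 10 genes were well above background, as the scanner software marks it, on all 6 arrays through their brightest probe; probes never so marked are called at background here. The A-/G+ arrays were dimmer before normalization, with 75th percentiles of 56.6 to 251 intensity units against 332 to 334, and had 18336 to 24730 probes well above background against 26469 to 26654. The standard deviation was larger among A-/G+ than among A+/G+ arrays for 10 of the 10 genes and for 77.9% of all probes. All A+/G+ arrays were on one slide and all A-/G+ arrays on another, so slide and fraction cannot be told apart. Atp1b2, which encodes the protein that carries the ACSA-2 epitope, was higher in A+/G+ cells by 2.16 ± 0.18 (limma adjusted p = 0.00725), and its signal also exceeded background on every A-/G+ array. Slc1a3, which encodes GLAST, measured 13.39 ± 0.19 in A+/G+ and 14.59 ± 0.51 in A-/G+ cells (SD over 3 arrays each) and did not pass (limma adjusted p = 0.0733).

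**Figure D1:**
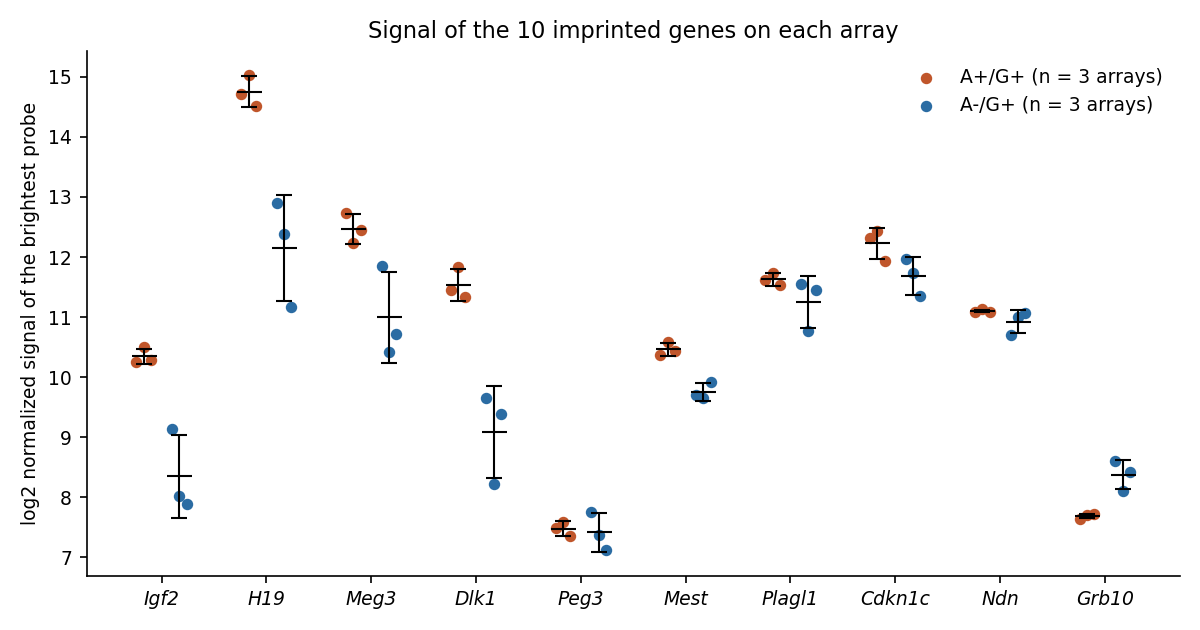
Log2 normalized signal of the brightest probe of each of the 10 genes, with 1 point per array, the mean as a horizontal line and the SD as a bar (n = 3 arrays per fraction). The fractions stand clear of each other for H19, Dlk1, Igf2, Meg3, Mest, Grb10 and, narrowly, Ndn; levels of different genes come from different probes and are not comparable.

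Igf2 encodes a fetal growth factor that signals through the insulin and IGF receptors. Its single probe (chr7:149839661-149839720 of mm9, reverse strand) read 10.26, 10.49 and 10.28 on the A+/G+ arrays and 9.14, 8.02 and 7.88 on the A-/G+ arrays. The fractions did not overlap, and A-/G+ replicate 1 stood nearest to the A+/G+ values. The means were 10.34 ± 0.13 and 8.35 ± 0.69 (SD, n = 3), the medians differed 4.77-fold, and the difference was 2.00 ± 0.37 (limma adjusted p = 0.0392). H19, the noncoding RNA that the maternal allele of the same locus makes, read 14.71, 15.04 and 14.52 on the A+/G+ arrays and 12.90, 12.38 and 11.17 on the A-/G+ arrays. The fractions did not overlap here either, and A-/G+ replicate 3 was the lowest for both genes. The H19 difference was 2.60 ± 0.48 (limma adjusted p = 0.0401), with medians 5.02-fold apart.

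Of the 7 H19 probes, 6 were well above background in all A+/G+ samples, and these 6 differed by 2.43 to 2.71. Of these, 5 passed the adjusted p, and the other one, at chr7:149762113-149762172, had an adjusted p of 0.0593. The probe printed above as at background read between 1.77 and 1.80 on all 6 arrays, with a difference of 0.00. Averaging the 7 probes brought the H19 difference to 2.25 (limma adjusted p = 0.0344) and the medians to 3.64-fold apart, under the 4-fold limit.

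Of the Dlk1 and Meg3 pair, both had higher means in A+/G+ cells and Dlk1 alone passed. Dlk1, a transmembrane protein with EGF-like repeats that is related to the Notch ligands, read 11.45, 11.83 and 11.33 on the A+/G+ arrays and 9.65, 8.21 and 9.39 on the A-/G+ arrays (brightest probe, chr12:110698721-110698781, forward strand). The fractions did not overlap, and A-/G+ replicate 2 was the lowest. The difference was 2.45 ± 0.42 (limma adjusted p = 0.0338), with medians 4.16-fold apart. The second Dlk1 probe gave a difference of 2.45 ± 0.86 as well, but its A-/G+ values ranged from 3.48 to 6.64 and its adjusted p was 0.176. With the mean of both probes the Dlk1 call was lost (limma adjusted p = 0.0752).

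Meg3, the maternally expressed noncoding RNA of the pair, read 12.73, 12.23 and 12.45 on the A+/G+ arrays and 11.85, 10.42 and 10.72 on the A-/G+ arrays. The ranges were separate, with 0.38 between the lowest A+/G+ and the highest A-/G+ array. The difference of 1.47 ± 0.41, with medians 3.31-fold apart, did not pass (limma adjusted p = 0.106). All 3 Meg3 probes had separate ranges, with differences of 1.46 to 1.85 and adjusted p of 0.0608 to 0.106. Meg3 did pass under 3 other settings, the alignment at the 75th percentile (0.0489), normexp background correction (0.0356) and a filter on dim probes (0.0413), and with the mean of its 3 probes (0.0431), all limma adjusted p.

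**Figure D2:**
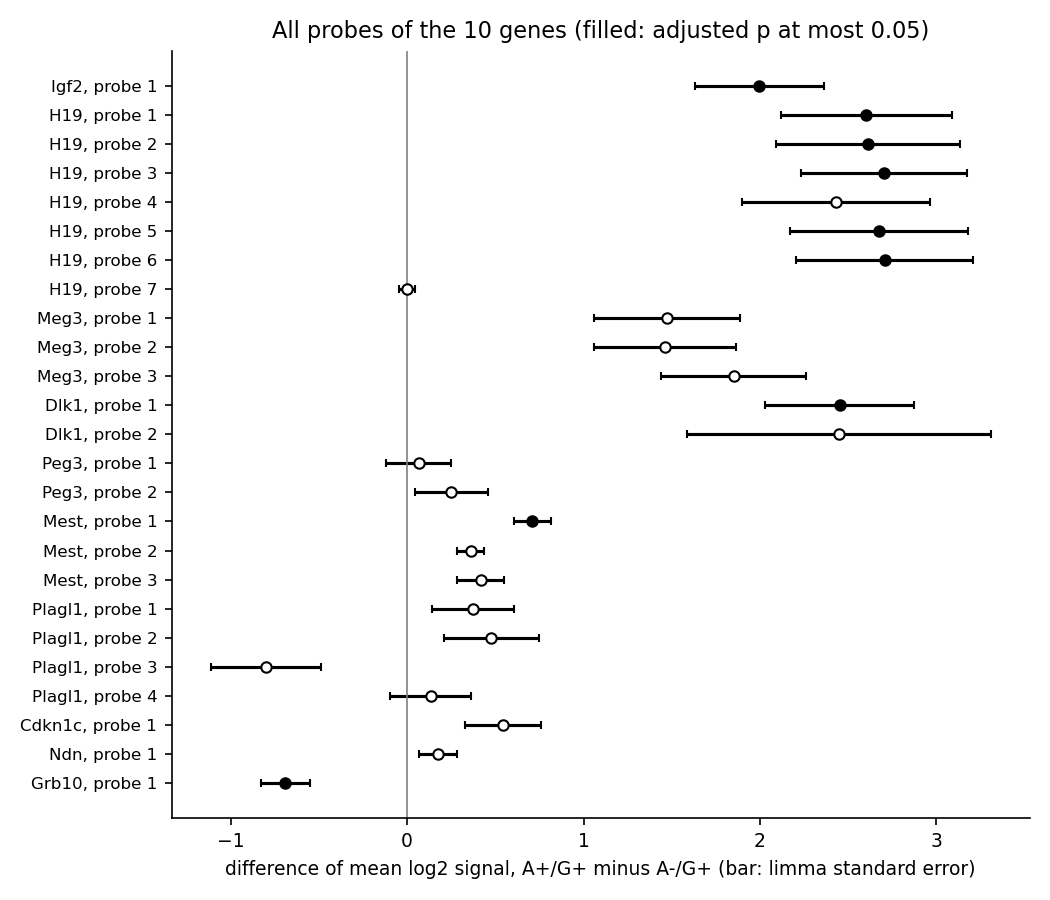
Difference of the mean log2 signal (A+/G+ minus A-/G+) with the limma standard error for all 25 probes of the 10 genes, numbered within a gene from the brightest; filled points have an adjusted p of at most 0.05. The 6 H19 probes above background lie between 2.43 and 2.71, H19 probe 7 lies at 0, and Plagl1 probe 3 and Grb10 are the only probes left of 0.

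Among the other paternally expressed genes, Mest alone differed past the adjusted p. Mest, which encodes a protein with an alpha/beta hydrolase fold, read 10.36, 10.58 and 10.44 on the A+/G+ arrays and 9.70, 9.64 and 9.92 on the A-/G+ arrays. The fractions did not overlap and the spread within each was small. The difference was 0.71 ± 0.10 (limma adjusted p = 0.0233), or 1.67-fold between medians. That probe was printed in 10 spots per array, and the other 2 Mest probes, in single spots, gave smaller differences of 0.36 (adjusted p = 0.0539) and 0.42 (adjusted p = 0.139).

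Peg3, a zinc finger protein, read 7.49, 7.59 and 7.35 in A+/G+ and 7.76, 7.37 and 7.12 in A-/G+ cells. The A+/G+ values lay inside the A-/G+ range, and the difference was 0.07 ± 0.18 (limma adjusted p = 0.847). Ndn, which encodes necdin, a member of the MAGE family, read 11.09, 11.13 and 11.08 in A+/G+ and 10.71, 11.01 and 11.06 in A-/G+ cells. Its ranges were separate by 0.02 only, and the difference was 0.17 ± 0.11 (limma adjusted p = 0.440).

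Plagl1, a zinc finger transcription factor, was read by 4 probes that did not point the same way. Its brightest probe read 11.61, 11.74 and 11.53 in A+/G+ and 11.56, 10.76 and 11.44 in A-/G+ cells, a difference of 0.37 ± 0.23 (limma adjusted p = 0.442). A second probe gave 0.48 (adjusted p = 0.389), but the pair start 448 bases apart and share a run of 26 bases, so they are not independent readings. The third probe in brightness, at chr10:12848421-12848480, was higher on all A-/G+ arrays (6.06 to 7.18) than on all A+/G+ arrays (5.61 to 5.99), with a difference of -0.80 (limma adjusted p = 0.215). The fourth gave 0.13 (adjusted p = 0.738), so no Plagl1 probe passed in either direction.

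Of Cdkn1c and Grb10, which restrain growth, Grb10 passed and Cdkn1c did not. Cdkn1c, which encodes the cyclin-dependent kinase inhibitor p57, read 12.31, 12.44 and 11.94 in A+/G+ and 11.97, 11.73 and 11.35 in A-/G+ cells. The ranges touched, since the highest A-/G+ array lay 0.04 above the lowest A+/G+ array, and the difference was 0.54 ± 0.22 (limma adjusted p = 0.225). Grb10, an adaptor protein that binds the insulin and IGF1 receptors and dampens their signaling, read 7.64, 7.70 and 7.72 in A+/G+ and 8.60, 8.11 and 8.43 in A-/G+ cells. All A-/G+ values lay above the A+/G+ values, with a difference of -0.69 ± 0.14 (limma adjusted p = 0.0469), or 1.65-fold between medians. The Grb10 value lay close to the limit, and it missed it on the authors' table (0.0514), with limma's trend and robust variance (0.0534) and with the alignment at the 75th percentile (0.0554), where -0.67 was below 0 but 0.35 above the median of all probes and 0.51 below that of the bright probes.

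In all, 6 of the 10 genes had A+/G+ arrays that all lay above the A-/G+ arrays, where 12.7% of all probes did, and Grb10 was the only one with the reverse order, which 24.3% of all probes showed. The calls depended on which arrays were included. With any A+/G+ array left out, all 5 genes lost their calls, at 0.0699 to 0.159 (limma adjusted p over the 3 fits). Calls over all probes also fell in these 3 fits, from 5172 to between 1250 and 1598 of 55681. In the same fits, 5 to 7 of the 10 genes and 9975 to 10468 of the 55681 probes had an unadjusted limma p under 0.05. Without A-/G+ replicate 1, H19, Dlk1, Igf2 and Meg3 passed and Mest (0.0608) and Grb10 (0.0727) did not. Without A-/G+ replicate 2, Dlk1 (0.0271) and Grb10 (0.0263) passed, and H19 (0.0930), Igf2 (0.103) and Mest (0.0626) did not. Without A-/G+ replicate 3, H19 (0.0170), Dlk1 (0.0456) and Mest (0.0153) passed, and Igf2 (0.0569) and Grb10 (0.0800) did not. Over all probes, 3847 passed without A-/G+ replicate 1, 3253 without A-/G+ replicate 2 and 9015 without A-/G+ replicate 3. The direction held in each fit with 1 array left out for the 5 genes. After adjustment, none of the 10 genes passed the methods' t-test, with 0.0515 for Mest to 0.0903 for Grb10 among the 5, and 6 of the 10 had an unadjusted p under 0.05. The 4-fold limit between medians was missed by Igf2 after normexp background correction (3.87-fold) and by Dlk1, narrowly, with the alignment at the 75th percentile (3.9987-fold). With 1 array left out, the medians of H19 were 4.19-fold to 7.64-fold apart, those of Dlk1 3.80-fold to 6.26-fold and those of Igf2 3.24-fold to 5.14-fold, with the highest H19 and Dlk1 values found without A-/G+ replicate 1. Dlk1 missed 4-fold without A+/G+ replicate 2 (3.99-fold) and without A-/G+ replicate 2 (3.80-fold), and Igf2 without A-/G+ replicate 2 (3.40-fold) or 3 (3.24-fold).

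**Figure D3:**
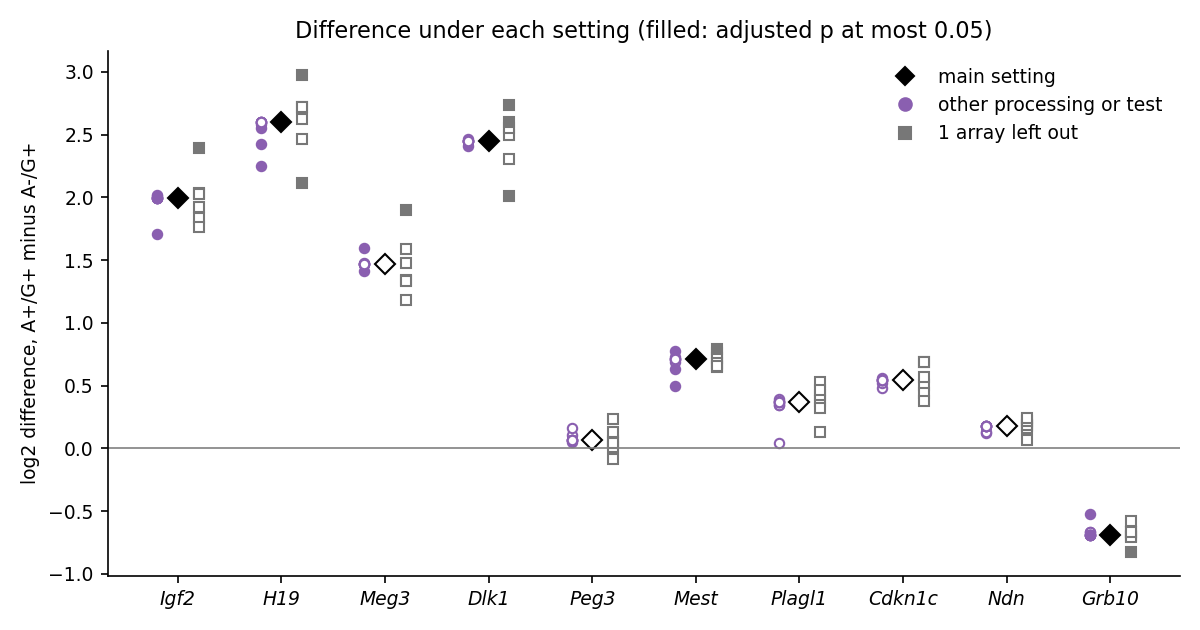
Log2 difference of each of the 10 genes in the main setting (diamonds), under other processing, test or probe choices (circles, left) and with 1 array left out (squares, right); filled symbols have an adjusted p of at most 0.05. H19, Dlk1 and Igf2 stayed between 1.71 and 2.98, while the symbols with 1 array left out are mostly open, and Peg3 crossed 0.

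The genes around the 10 were read next, within 200 kb on mm9, a window set after the values had been seen. It held 46 other named genes, of which 5 passed the adjusted limit toward A+/G+ and 3 toward A-/G+ cells, with a median difference of -0.02. Over all probes, 4.65% passed toward A+/G+ and 4.64% toward A-/G+ cells. Beside Igf2, the antisense gene Igf2os was higher in A+/G+ cells by 1.75 (limma adjusted p = 0.0410), as was Tnnt3, a muscle troponin gene beyond H19, by 1.80 (0.0124). Ins2, which lies on the other side of Igf2, had a difference of -0.54 and did not pass (limma adjusted p = 0.609). Next to Meg3, the transcript 6430411K18Rik passed (difference 2.16, limma adjusted p = 0.00784) but stayed at background in all A-/G+ samples, so no fold is given, and Mirg, farther along the same cluster, had a difference of 1.41 (0.0625). Copg2, whose probe starts 490 bases past the Mest probes on the opposite strand, was higher in A-/G+ cells, opposite to Mest (difference -0.66, limma adjusted p = 0.0341). The other neighbors that passed were Zim1 next to Peg3 and Stx11 near Plagl1, higher in A+/G+ cells, and KCNQ1ot1 near Cdkn1c and Fignl1 near Grb10, higher in A-/G+ cells. Zim1 and Stx11 also stayed at background in all A-/G+ samples, so no fold is given for them.

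Of 59 other imprinted genes on the array, 5 (8.47%) passed toward A+/G+ cells, 4 (6.78%) toward A-/G+ cells and 50 in neither direction, with a median difference of 0.23. Over all probes these shares were 4.65% and 4.64%. The 4 with the largest differences among those past the adjusted p were Slc22a2 (an organic cation transporter), Cobl (an actin nucleator), Dio3 (the deiodinase that inactivates thyroid hormone) and Zim1 (a zinc finger gene). The bound for Slc22a2 was at least 3.46-fold toward A+/G+ cells (limma adjusted p = 0.0318), and Cobl, well above background on 1 A-/G+ array, differed by 2.20 ± 0.41 (0.0405). Dio3 and Zim1 passed (0.0126 and 0.0179), but all their A-/G+ signals stayed at background and they were too dim for a bound. Outside the naming rule, the fifth gene higher in A+/G+ cells was Nnat, by 1.00 ± 0.07 (0.00518), and the 4 higher in A-/G+ cells were Kcnq1ot1, Inpp5f, Ppp1r9a and Copg2, with differences of -1.55 to -0.66.

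Genes of the IGF pathway, which carries and receives the Igf2 signal, passed in both directions, 6 of 21 higher in A+/G+ and 4 of 21 higher in A-/G+ cells, with a median difference of 0.36. Igf1, the other growth factor, read 7.32, 6.70 and 7.03 in A+/G+ and 3.73, 2.99 and 4.48 in A-/G+ cells. That was a difference of 3.28 ± 0.42 (limma adjusted p = 0.0171), with Igf1 well above background on 1 A-/G+ array. Stc2, a secreted glycoprotein that inhibits the protease Pappa, had a bound of at least 3.22-fold toward A+/G+ cells (0.00747), and Pappa itself, which cleaves IGF binding proteins, was higher in A-/G+ cells (difference -2.20 ± 0.31, 0.0206).

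The receptors did not pass. Igf1r, the main signaling receptor, had a difference of -0.41 (limma adjusted p = 0.549), Insr one of -0.21 (0.517), and Igf2r, the clearance receptor that is itself imprinted, one of 0.41 (0.0582). The secreted binding proteins, which hold IGFs in the extracellular fluid, passed for Igfbp2 (1.63 ± 0.20, limma adjusted p = 0.0157), Igfbp3 (2.74, 0.00747), Igfbp4 (1.21 ± 0.15, 0.0152) and Igfbp1 (1.57, 0.0425), all toward A+/G+ cells. Igfbp1 and Igfbp3 stayed at background in all A-/G+ samples. Igfbp5 had a difference of 1.03 (0.0703) and Igfbp6 one of -0.16 (0.843), and Igfbp7 stayed at background throughout. Of the mRNA-binding proteins named for Igf2, Igf2bp1 (-0.99 ± 0.07, limma adjusted p = 0.00516) and Igf2bp3 (-0.91 ± 0.17, 0.0381) were higher in A-/G+ cells, and Igf2bp2 had a difference of -0.54 (0.0857).

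The other cyclin-dependent kinase inhibitors also split. Cdkn2b was higher in A+/G+ cells on a probe well above background on 1 array only (difference 1.56, limma adjusted p = 0.00690). Cdkn2c (-0.71 ± 0.09, 0.0167) and Cdkn3 (-0.86 ± 0.14, 0.0304) were higher in A-/G+ cells, and 4 of 7 did not pass. Of 15 proliferation genes, 7 were higher in A-/G+ cells and 0 in A+/G+ cells by limma, and 15 of 15 had the higher mean in A-/G+ cells, led by cyclin D1 (Ccnd1, -1.32 ± 0.09, limma adjusted p = 0.00451). Among these genes, Aurkb stayed at background throughout.

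**Figure D4:**
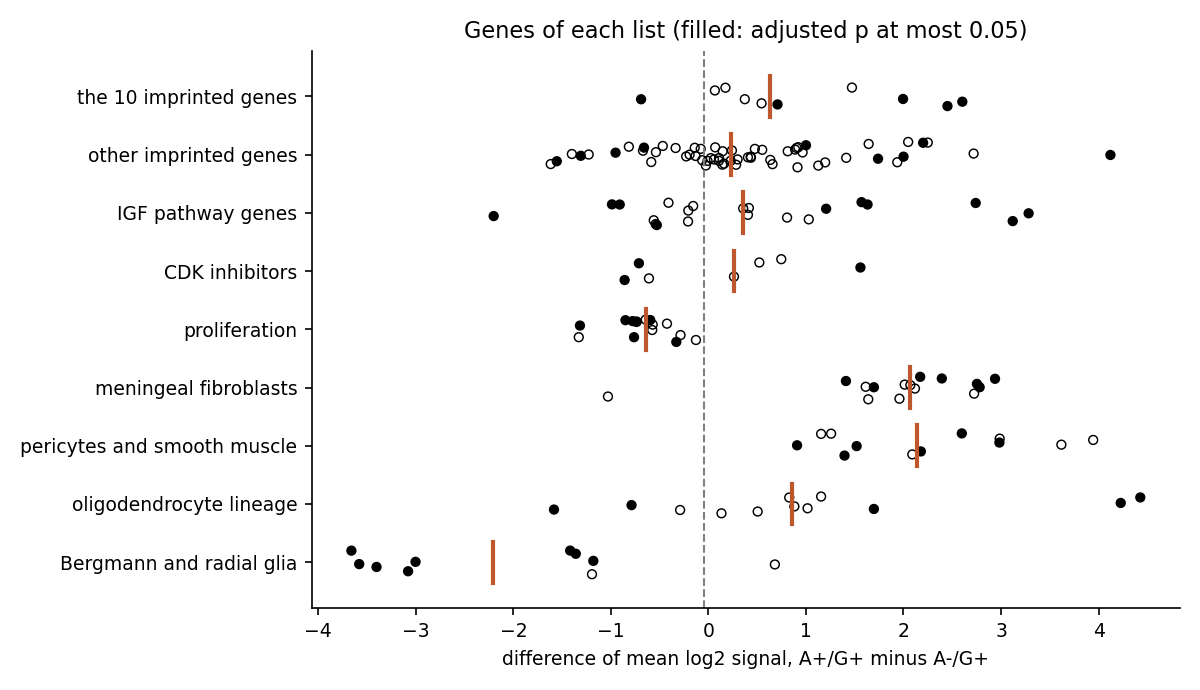
Difference of the mean log2 signal (A+/G+ minus A-/G+) of every gene of 9 lists, 1 point per gene (brightest probe) spread vertically for legibility, filled where the adjusted p is at most 0.05. The orange bar is the median of a list, 0.63 for the 10 genes and 2.07 for the meningeal fibroblast markers, and the dashed line is the median of all probes, -0.04.

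Markers of other cell types differed between the fractions alongside H19, Igf2 and Dlk1. Of 15 markers of meningeal fibroblasts, 7 were higher in A+/G+ cells and none in A-/G+ cells by limma at the adjusted limit, 14 had the higher mean in A+/G+ cells, and the median difference was 2.07. Their summed linear signal was 100754 to 123483 on the A+/G+ arrays and 47422, 32819 and 17049 on A-/G+ replicates 1, 2 and 3, an order in which H19 and Igf2 followed. Dlk1 and Meg3 did not follow it and were lowest on A-/G+ replicate 2. Several summed marker lists were also lowest there: pericytes and smooth muscle, Purkinje cells, choroid plexus, microglia and blood cells, and pan-neuronal markers. Each marker of the meningeal fibroblast list was well above background on at least 1 array. Crabp2 (2.94), Slc22a6 (2.78), Slc6a13 (2.75) and Foxc1 (2.39) had the largest differences among those that passed, while the collagen gene Col1a1 (1.64, limma adjusted p = 0.0912) and the proteoglycan gene Dcn (2.01, 0.0959) did not pass.

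Pericyte and smooth muscle markers passed toward A+/G+ cells in 6 of 12 cases, with summed signals of 16331 to 19169 against 2472 to 3667, and Myh11 alone stayed at background throughout. Oligodendrocyte lineage markers passed in 3 of 12 cases toward A+/G+ and in 2 of 12 toward A-/G+ cells, with summed signals of 16645 to 20088 against 4446 to 8243. This list shares Pdgfra with the meningeal fibroblast list and Cspg4 with the pericyte and smooth muscle list, so the lists are not fully separate readings. Purkinje cell markers passed in 7 of 14 cases toward A+/G+ cells and in 1 toward A-/G+ cells (summed signals 7339 to 17254 against 2457 to 3009). Endothelial markers passed in 1 of 12 cases (9577 to 14432 against 2185 to 9791), and 0 of 12 choroid plexus markers passed by limma (1 at an unadjusted p under 0.05), with overlapping sums of 34179 to 51182 against 31791 to 71068. Of 15 general astrocyte markers, 8 passed toward A+/G+ cells and 1 toward A-/G+ cells, with sums of 358695 to 373699 against 185238 to 285241. This list holds Atp1b2 and Slc1a3, which encode the antigens of the sort, and Atp1b2 is among the 8. The count is therefore not independent of the sort. Granule neuron lineage markers passed in 2 of 12 cases, both toward A-/G+ cells (25488 to 30135 against 36561 to 38597). None of 15 pan-neuronal markers (21065 to 32860 against 16546 to 22954) and none of 12 microglia and blood cell markers (9268 to 17214 against 3619 to 8933) passed by limma, with 5 of each list at an unadjusted p under 0.05. Over all probes, 12974 of 55681 had an unadjusted limma p under 0.05. Of the Bergmann and radial glia markers, 8 of 10 were higher in A-/G+ cells, where their sum was 45882 to 71259 against 32606 to 36277. This list also holds Slc1a3. It further holds Gdf10, Wif1, Mybpc1, Npy and Gria1, which the study had reported for A-/G+ cells from these same arrays. Its count and sum are therefore not independent of that report. The part of any of these cell types in the values of the 10 genes was not tested, and in sorted bulk samples fewer cells of a type and less RNA per cell cannot be told apart.

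**Figure D5:**
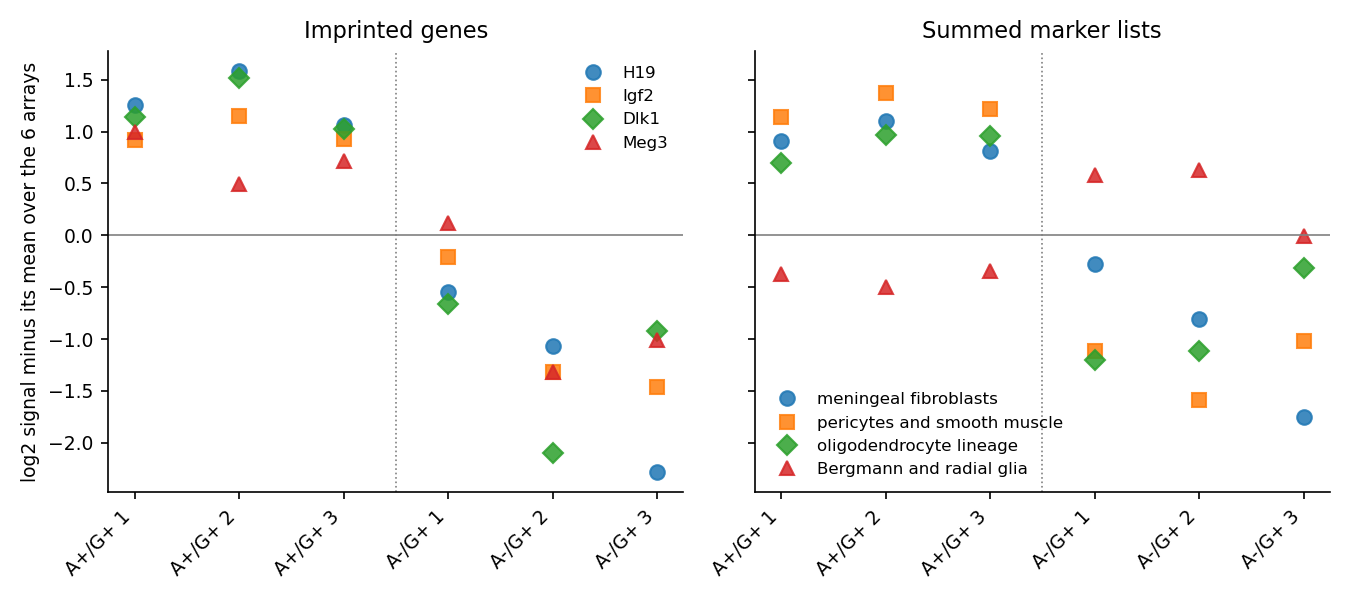
Log2 signal on each array minus the mean of the 6 arrays, for 4 of the imprinted genes (left, brightest probe) and for the summed linear signal of 4 marker lists (right). On the A-/G+ arrays the meningeal fibroblast sum lay at -0.27, -0.81 and -1.75, H19 at -0.55, -1.07 and -2.28, and Dlk1 at -0.66, -2.10 and -0.92. The Bergmann and radial glia sum was higher on the A-/G+ arrays, and its list holds genes that the study had reported from these arrays.

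The genes whose profile over the 6 arrays was most like that of the 3 widest-ranging of the 10 were found among 11300 named genes well above background on every array. For H19 these were Crabp2 (Pearson r = 0.9997), C1qtnf2 (0.999) and Slc6a20a (0.998), for Dlk1 they were Acsl1 (0.996), Flrt3 (0.996) and Gprc5c (0.995), and for Igf2 they were Crispld2 (0.997), Scarf2 (0.996) and Ldb2 (0.996). Crabp2, which binds retinoic acid in the cytoplasm, read 12.32, 12.67 and 12.14 on the A+/G+ arrays and 10.23, 9.76 and 8.33 on the A-/G+ arrays, and it is on the list of meningeal fibroblast markers. These values describe 6 arrays in 2 fractions that differ for many genes, the r values being the 3 highest of 11300 for each gene, and no p is attached to them.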

How the data were processed

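The authors sorted the cells, amplified polyA RNA with T7, labeled it with Cy3 and hybridized it to Agilent mouse arrays annotated on mm9. They deposited the intensity of each spot, background-subtracted and detrended by Feature Extraction 10.7.3.1, and a table of quantile normalized log2 values with 38 empty cells, which was used as an alternative. The 59305 gene spots were taken to log2, spots marked as outliers (118 to 250 per array) were left out, arrays were quantile normalized and spots of a probe averaged. No gene spot was saturated.

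The fractions were compared over 55681 probes with limma 3.58.1 in R 4.3.3, without a filter on dim probes, at the limits of the study's methods (adjusted p of 0.05, medians 4-fold apart). For 3 against 3 arrays an exact permutation test cannot go below 0.1, so none was used. The number of arrays limits the precision. The fits were tested on simulated data with known changes. Named are all 10 genes with every probe, up to 4 genes per other list with the largest difference among those past the adjusted p, the IGF binding proteins and receptors, Atp1b2 and Slc1a3, and for the 3 genes of widest range the 3 most similar profiles. Some other genes are named because they stand on several lists or because the study had reported them. Probe positions and sequences are those of the array files, and each of the 10 names has an entry in RefSeq for GRCm38.p6, which served for names only. Exon and intron positions on mm9 were not analysed here. An "at least" fold was computed from the brighter fraction's mean and, for the dim arrays, the higher of the probe itself and the dimmest signal that the software still marked as well above background there. The 10 genes and all lists were chosen with earlier results of these data known. Alternatives covered the normalization, background step, authors' table, dim probes, the methods' t-test, the variance model, outlier spots, the replicate block, each array left out, the probe of a gene and a 2-fold limit.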

Additional observations from a re-analysis of the deposited data

How the results depend on the processing

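The direction of the difference was kept under all 15 alternatives for 9 of the 10 genes, and Peg3, at 0.07, ranged from -0.082 (without A-/G+ replicate 3) to 0.24 when 1 array was left out. Past the adjusted p were 5 of the 10 genes, and 4 to 6 under other scalings, background steps, the authors' table, the dim filter, the other variance model and the probe mean. The methods' t-test after adjustment called 0 genes, 0 also 4-fold apart, 2548 and 608 probes by the same limits, and 3 other imprinted genes. At an unadjusted p under 0.05 it had 6 of 10 genes and 12536 of 55681 probes. Leaving out 1 array gave ranges of 0 to 4 genes, 0 to 3 genes also 4-fold apart, 1250 to 9015 and 417 to 1948 probes, and 1 to 17 other imprinted genes. The 75th percentile shift gave 19572 probes, 2832 of them 4-fold apart, and 14 other imprinted genes. Normexp gave 282 probes 4-fold apart and 18 other imprinted genes, and the filter on dim probes 17. The mean of a gene's probes left 1 gene past both limits, Igf2, and a 2-fold limit gave 3137 probes. For these counts the cause was not tested. Whether same-numbered samples were paired could not be decided from so few arrays per fraction. Deviations of same-numbered arrays from their fraction means correlated at 0.13, 0.12 and -0.03. For A+/G+ replicates 1 and 2 the same-numbered A-/G+ array was the best match, whereas A+/G+ replicate 3 correlated best with A-/G+ replicate 2. With the replicate block, limma called 0 probes, 0 of the 10 genes and 0 other imprinted genes by either limit, with 11671 probes, 7 of the 10 genes and 22 other imprinted genes at an unadjusted p under 0.05. Signal over background limits the dim probes named.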
